A study of Mus musculus with 7 samples.

Results

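The 8 genes described here are Ptp4a2, Gm13422, Med1, Zfp868, Mal2, Gm6300, 2610035D17Rik and Serpina3b, of 48709 Ensembl genes counted in mouse kidney. They were chosen from the measured values, because the libraries fell into groups at least 8-fold apart in CPM (read counts scaled to library size) and, as the rule put it, not along genotype. The levels across libraries are therefore a description and carry no test. RNA was sequenced from kidney tissue of male mice with a double knockout of Hs3st3a1 and Hs3st3b1 (DKO, 4 libraries, replicates 1 to 4) and of male wild-type mice (WT, 3 libraries, replicates 1, 2 and 4). The labels give each library a number of its own without saying that it stands for an animal, so p-values measure only the spread between these libraries. No kidney is labelled as measured more than once. Genotype is the only factor named, and the age, the strain and how the alleles were deleted are not stated in the labels used here.

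The genes belong to no common pathway. Of the 8, 5 are protein-coding, 2 are pseudogenes and 1 is a long noncoding RNA, and they lie on 7 chromosomes. Ptp4a2 encodes a small prenylated tyrosine phosphatase of the PRL family. Med1 encodes a subunit of Mediator, the complex that connects transcription factors to RNA polymerase II, and is the subunit that binds nuclear receptors. Zfp868 encodes a zinc finger protein, Mal2 a membrane proteolipid known from human liver cells for transport of proteins to the apical surface, and Serpina3b a member of the mouse cluster of clade A serine protease inhibitors. A processed pseudogene is a copy of a messenger RNA that was reverse transcribed and inserted elsewhere in the genome, and an unprocessed pseudogene comes from duplicated DNA. Reads from a parent gene can be assigned to such a copy wherever their sequences are alike.

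Among the 8 genes, Gm13422 is a near-identical copy of Ptp4a2. The sequences below are the first 300 of 504 bases of the Ptp4a2 coding sequence (chromosome 4, plus strand) and of the Gm13422 transcript (chromosome 2, plus strand), shown because the levels of both genes move together. Capitals mark the 7 positions in this stretch at which they differ.
Ptp4a2: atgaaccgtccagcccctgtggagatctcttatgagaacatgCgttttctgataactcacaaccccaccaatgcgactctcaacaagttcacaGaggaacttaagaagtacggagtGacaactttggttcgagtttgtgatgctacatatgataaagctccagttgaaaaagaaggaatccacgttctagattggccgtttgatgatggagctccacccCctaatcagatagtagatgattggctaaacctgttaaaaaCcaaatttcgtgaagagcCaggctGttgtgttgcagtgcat
Gm13422: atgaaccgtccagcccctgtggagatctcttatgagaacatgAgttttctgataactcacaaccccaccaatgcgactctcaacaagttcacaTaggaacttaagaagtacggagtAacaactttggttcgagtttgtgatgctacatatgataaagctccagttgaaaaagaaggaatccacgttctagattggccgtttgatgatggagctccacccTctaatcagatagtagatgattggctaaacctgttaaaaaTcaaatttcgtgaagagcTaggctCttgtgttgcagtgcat
These are GENCODE M21 sequences on GRCm38. Over the whole 504 bases they are 97.2% identical without gaps, and the longest identical run is 102 bases. Of the 14 differences, 9 are transitions and 5 are transversions. Counted from 1 at the first base of the start codon, G94T places a stop codon at codon 32 of the 168 codons in Gm13422. The copy covers the coding sequence alone, which is 13.8% of the 3646 bases of the Ptp4a2 transcript, and it joins what are 5 coding exons in Ptp4a2. In a search of 141767 transcripts, no other gene shared at least 100 bases at 90% identity with Ptp4a2 or with Gm13422.

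Total counts ranged from 18330833 to 24259231 per library. Reads of Hs3st3a1 numbered 1, 0, 0 and 3 in DKO libraries 1 to 4 and 29, 13 and 12 in WT libraries 1, 2 and 4, so this gene separated the libraries as their labels do. Reads of Hs3st3b1 did not, with 33, 106, 65 and 108 in DKO and 56, 90 and 112 in WT, and the groups overlapped (edgeR log2 fold change -0.23, SE 0.39, adjusted p = 0.755). The labels do not say which part of that gene was deleted. Kidney markers were present in every library, with 6516 to 9642 CPM summed over 6 proximal tubule genes and 73 to 103 CPM summed over 3 podocyte genes. Single markers varied more than the sums. Kap, of the proximal tubule list, stood at 273 CPM in DKO 3 against 895 to 5423 CPM in the others. Pvalb, of the distal convoluted tubule list, stood at 4.87 CPM in DKO 3 against 22.4 to 53.4 CPM. No other gene of these lists was lowest in DKO 3. Xist had 0 reads in all libraries. Markers of other tissues stood apart in DKO replicate 1, with 55.2 CPM summed over 3 skeletal muscle genes against 0.204 to 1.73 CPM in the other libraries, and the sum of 3 liver markers was highest in DKO replicate 3, at 119 CPM against 12 to 42.9 CPM in the others. Of that sum 97.5 CPM were Serpina1a, itself of the Serpina cluster and also raised in DKO 1 (26.5 CPM) and WT 2 (9.53 CPM). Alb was highest in DKO 3, at 15 CPM against 4.2 to 7.97 CPM, and Apoa2 was lowest there, at 6.77 CPM against 7.27 to 11 CPM.

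The size of a step was measured as the largest gap between neighbouring libraries after the 7 libraries were sorted by log2(CPM + 0.1), where 3 log2 units are 8-fold. Of 14971 genes that reached 1 CPM in a library, 32 (0.214%) had a gap of at least 3 with at least 1 CPM in the library above it. All 8 genes are among those 32 by their choice. Of the 15394 genes tested between genotypes, which include all 8, 20 (0.13%) had such a gap. The median largest gap over the genes tested was 0.38. Gm13422 had the smallest gap of the 8, at 3.25, and 2610035D17Rik the largest, at 7.25. Just outside the threshold lay Igkv4-59 (2.90), AI429214 (2.88) and Serpina1a (2.86). The 8 genes divide the libraries in 6 different ways, and of their 28 pairs only Ptp4a2 with Gm13422 and Med1 with Zfp868 had the same libraries above the gap. The root-mean-square difference of log2 levels, each gene centred on its mean over the 7 libraries, was 0.236 for the first pair and 0.416 for the second, against at least 1.72 for any other pair.

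**Figure D1:**
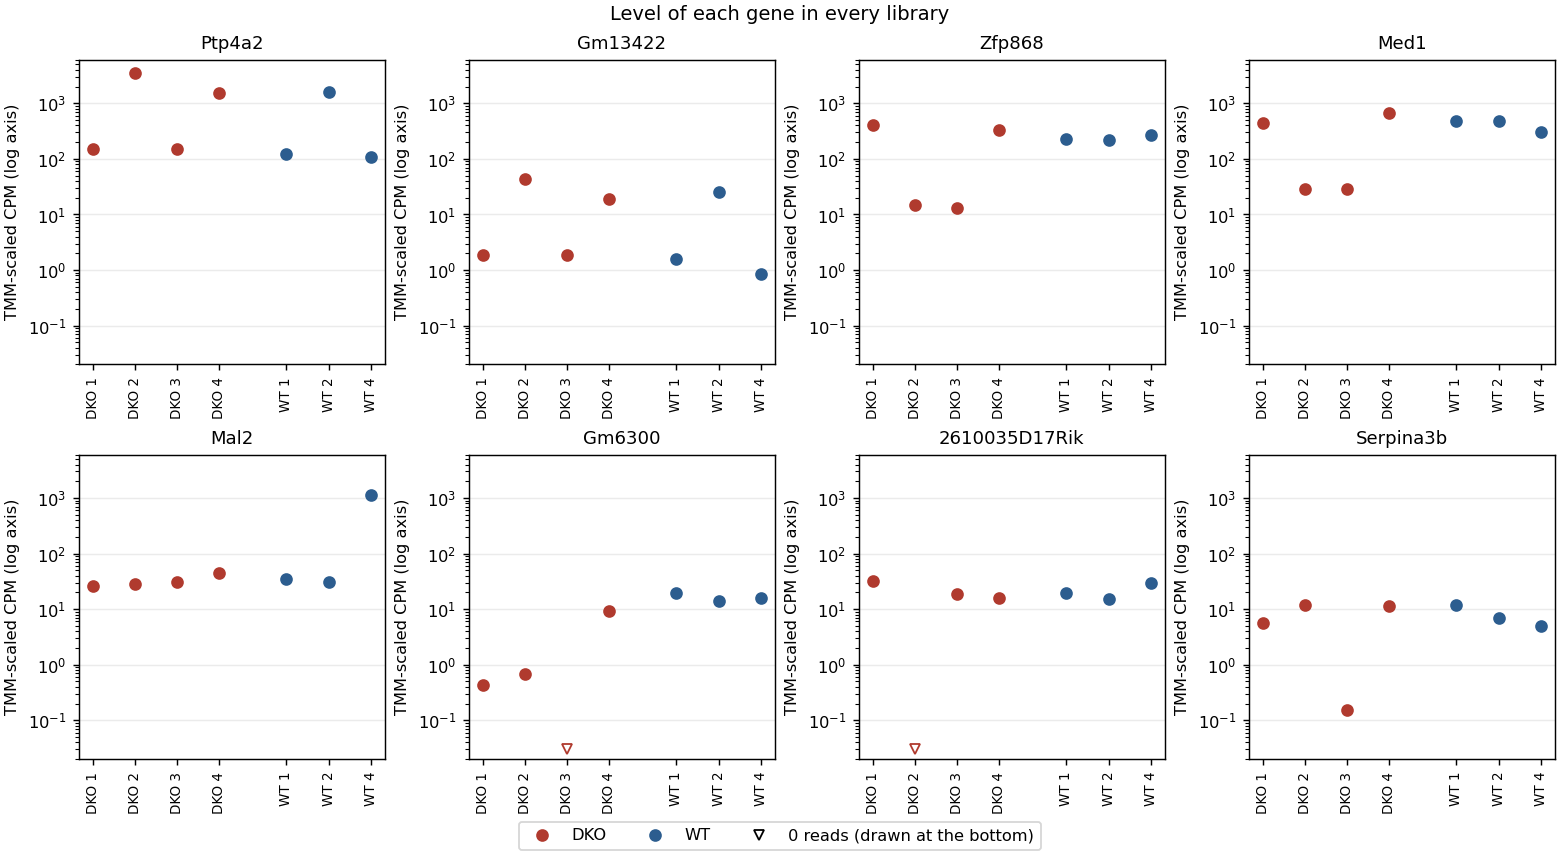
TMM-scaled CPM on a log axis of each of the 8 genes in the 4 DKO libraries (red) and the 3 WT libraries (blue), 1 point per library, with an open triangle at the bottom for 0 reads. Ptp4a2 and Gm13422 are high in DKO 2, DKO 4 and WT 2, Zfp868 and Med1 are low in DKO 2 and DKO 3, and the other genes each have a pattern of their own.

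**Figure D2:**
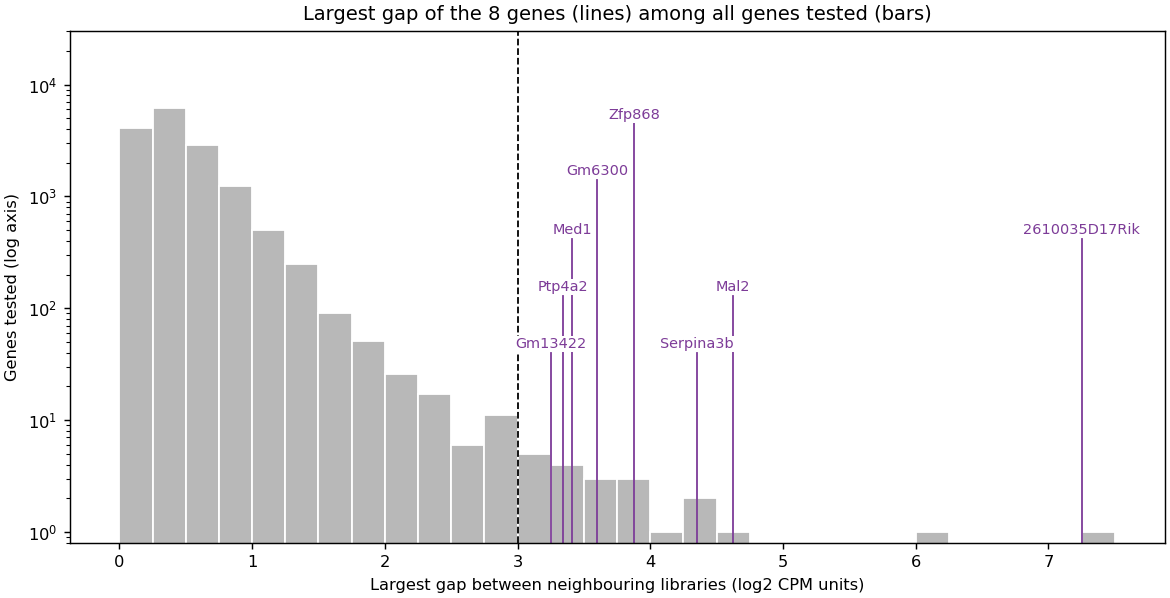
Number of genes (grey bars, log axis) by largest gap between neighbouring libraries in log2 CPM units for the 15394 genes tested, with lines for the 8 genes; line heights only separate the names. The dashed line is the 8-fold gap of 3, and the 8 genes lie between 3.25 and 7.25.

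Ptp4a2 (ENSMUSG00000028788, chr4:129811219-129850003, plus strand, 9 merged exons) stood at 152, 3451, 151 and 1542 CPM in DKO libraries 1 to 4, and at 123, 1630 and 108 CPM in WT libraries 1, 2 and 4. DKO 2, DKO 4 and WT 2 formed a high set and the other 4 libraries a low set, so both genotypes had libraries at both levels. The lowest library of the high set was 10.1-fold above the highest of the low set (exact 95% interval 9.77 to 10.5, which like all intervals here covers counting error only). Within the low set the levels spanned 1.41-fold, and within the high set 2.24-fold. In DKO 2 the gene took 65706 reads, which was 0.358% of that library. Per length of merged exons, this was 789 RPKM in DKO 2, against 24.7 RPKM in WT 4, the lowest library.

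Gm13422 (ENSMUSG00000084098, chr2:23235236-23235739, plus strand, 1 exon) followed the same division, with 1.89, 42.6, 1.90 and 18.9 CPM in DKO libraries 1 to 4 and 1.61, 25.3 and 0.852 CPM in WT libraries 1, 2 and 4. Its read counts were 43, 811, 37 and 462 in DKO and 31, 478 and 18 in WT. The Ptp4a2 counts were 3462, 65706, 2943 and 37772 in DKO and 2372, 30797 and 2281 in WT. For every 100 Ptp4a2 reads there were 1.24, 1.23, 1.26 and 1.22 Gm13422 reads in the DKO libraries, and 1.31, 1.55 and 0.789 in the WT libraries. The ratio thus varied 1.96-fold, whereas the Ptp4a2 level varied 32.0-fold across the same libraries. Pooled over the libraries it was 1.29 (95% interval 1.24 to 1.35), and the intervals of 5 of the 7 libraries held that value. WT 2 lay above it (1.42 to 1.70) and WT 4 below it (0.467 to 1.25). How many reads of the Gm13422 row came from Ptp4a2 RNA was not tested, since the count table holds no read sequences.

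Among genes with an 8-fold gap, only Gm13422 shared the division of Ptp4a2. Graded or inverse changes were not searched for. With the gap lowered to 1 log2 unit, a value chosen after the levels were seen, Gm13422 was still the only other gene with DKO 2, DKO 4 and WT 2 above it. None of the 26 tested genes within 500 kb of Ptp4a2 and none of the 9 within 500 kb of Gm13422 had these libraries above its largest gap. Khdrbs1, an RNA-binding protein gene and the nearest expressed gene before Ptp4a2, had 269, 317, 243 and 313 reads in DKO and 184, 218 and 257 in WT. The other PRL phosphatases, Ptp4a1 and Ptp4a3, had largest gaps of 0.36 and 0.39. Ptp4a1 stood at 51.0, 56.2, 53.0 and 37.4 CPM in DKO and 47.9, 33.4 and 55.1 CPM in WT. Neither had the libraries of Ptp4a2 above its gap.

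**Figure D3:**
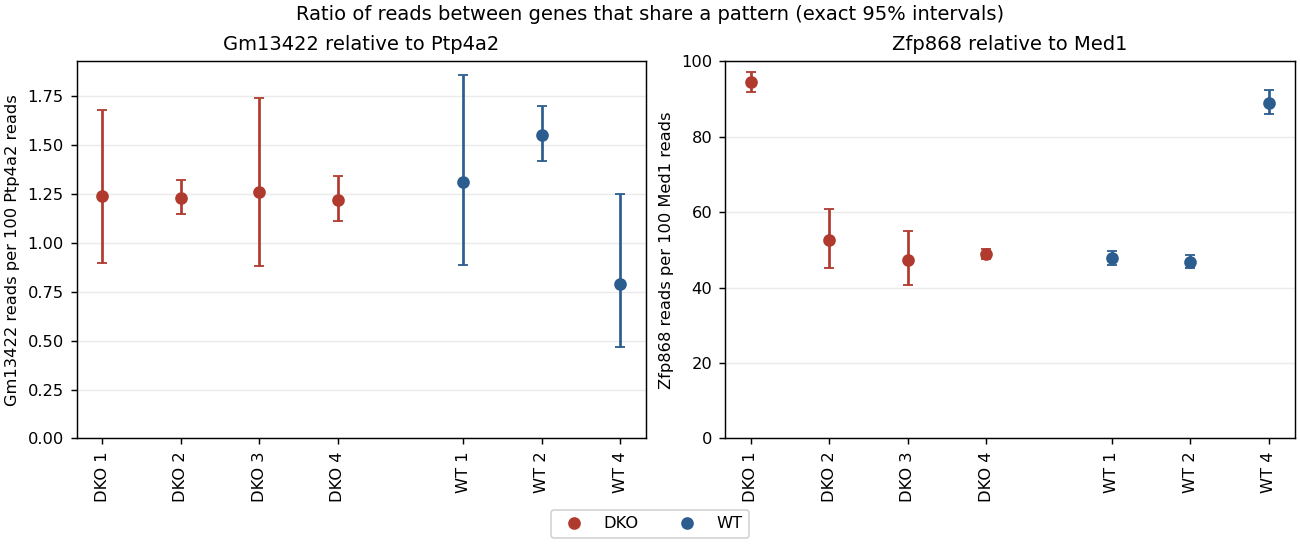
Gm13422 reads per 100 Ptp4a2 reads (left) and Zfp868 reads per 100 Med1 reads (right) in each DKO (red) and WT (blue) library, with exact 95% intervals; both axes start at 0. The left ratio stays between 0.789 and 1.55, and the right ratio is 94.5 in DKO 1 and 89.0 in WT 4 but 46.9 to 52.5 in the other libraries.

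Med1 and Zfp868 were both low in DKO 2 and DKO 3 and high in the remaining 5 libraries. Med1 (ENSMUSG00000018160, chr11:98152154-98193293, minus strand, 20 merged exons) stood at 439, 28.6, 28.2 and 675 CPM in DKO libraries 1 to 4, and at 479, 474 and 305 CPM in WT libraries 1, 2 and 4. Zfp868 (ENSMUSG00000060427, chr8:69610857-69625548, minus strand, 5 merged exons) stood at 415, 15, 13.3 and 331 CPM in DKO and at 229, 222 and 271 CPM in WT. The DKO range encloses the WT range for both genes. Across the gap Med1 differed 10.6-fold (95% interval 9.75 to 11.6) and Zfp868 14.8-fold (13.1 to 16.7). The low pair of libraries was nearly level, with a spread of 1.02-fold for Med1 and 1.13-fold for Zfp868. DKO 2 and DKO 3 also had the lowest total counts, 18330833 and 18639940, against 19114390 to 24259231 in the others, and the part of this in the result was not tested.

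Neither of these genes is a copy of the other. Their transcripts share no stretch of 100 bases at 90% identity, and the longest identical stretch on either strand is 13 bases. The ratio of their reads also moved. For every 100 Med1 reads there were 94.5, 52.5, 47.3 and 49.0 Zfp868 reads in DKO libraries 1 to 4, and 47.8, 46.9 and 89.0 in WT libraries 1, 2 and 4. The intervals of DKO 1 (91.8 to 97.2) and WT 4 (85.9 to 92.3) lay apart from those of the other 5 libraries, which ran from 40.6 at the lowest to 60.7 at the highest.

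Annotated promoter sequences of the pair are shown because the genes moved together. The Med1 stretch lies wholly inside the Med1 span given above, after the GENCODE start. Its motif matches thus lie within the annotated gene, and whether they act as promoter sites was not tested. They are from RefSeq on GRCm38.p6 and run 5′ to 3′ from 250 bases before to 50 bases after the annotated start, on the minus strand, at chr11:98192857-98193156 for Med1 and chr8:69625499-69625798 for Zfp868; capitals mark matches to CCAAT or to the GC box GGGCGG on either strand.
Med1: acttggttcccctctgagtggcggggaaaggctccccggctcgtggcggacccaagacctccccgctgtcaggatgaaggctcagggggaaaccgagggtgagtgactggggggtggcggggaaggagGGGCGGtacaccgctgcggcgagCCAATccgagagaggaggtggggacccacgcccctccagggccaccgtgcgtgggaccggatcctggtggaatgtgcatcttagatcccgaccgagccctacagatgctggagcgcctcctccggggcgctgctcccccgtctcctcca
Zfp868: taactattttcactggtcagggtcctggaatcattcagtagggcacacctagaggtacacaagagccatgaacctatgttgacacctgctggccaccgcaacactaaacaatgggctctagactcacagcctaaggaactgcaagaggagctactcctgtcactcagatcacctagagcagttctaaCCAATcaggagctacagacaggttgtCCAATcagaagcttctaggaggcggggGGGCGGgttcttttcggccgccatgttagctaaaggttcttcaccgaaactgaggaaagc
Both strands were searched for 4 motifs, none of which lies inside another. The CCAAT box (CCAAT, in 37.4% of 32851 mouse promoters of this length) was found 1 time in Med1 and 2 times in Zfp868. The GC box (GGGCGG, in 35.7%) was found 1 time in each. The TATA box (TATAAA, in 13.6%) and the ETS motif (CCGGAAG, in 8.9%) were in neither. RefSeq lists another start for Zfp868, where the GC box was found 4 times and none of the other motifs.

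Neighbouring genes did not take steps of this size with Med1 or Zfp868. Of 23 tested genes within 500 kb of Med1, 2 had the same libraries above their largest gap, and of 21 near Zfp868, 1 had, in each case with a gap under 1. Fbxl20, an F-box protein gene that ends 1751 bases from Med1, had 230, 314, 263 and 288 reads in DKO and 166, 226 and 168 in WT. Cdk12, a kinase of transcription elongation on the other side of Med1, had 121, 161, 98 and 228 reads in DKO and 148, 139 and 113 in WT. Gm11604, on the opposite strand within Med1, had between 1 and 4 reads per library. Zfp868 has a close relative in Zfp869 on the same chromosome, with 226 bases at 94.7% identity to a retained-intron transcript of Zfp868. Zfp869 stood at 297, 244, 282 and 271 reads in DKO and 264, 222 and 223 in WT, a largest gap of 0.12, so it did not share the division. Over the coding transcript the likeness of Zfp869 was 79.0% across 1085 bases, in a looser search at 75% added after the first. The other hits of Zfp868 at 90%, Tmem263 among them, were of 133 bases or fewer. Med1 matched 168 genes in this way, over at most 164 bases and in a noncoding transcript for the 3 longest.

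Mediator as a whole did not divide the libraries as Med1 did. Of the 32 other listed Mediator and kinase module genes 31 were tested, with a median largest gap of 0.38 and a maximum of 1.21 in Med31. None had the libraries of Med1 above its gap. The most abundant, Med28, stood at 262, 171, 144 and 199 CPM in DKO and 212, 303 and 376 CPM in WT. Med8 stood at 93.1, 85.9, 97.6 and 84.2 CPM in DKO and 95.8, 106 and 84.3 CPM in WT. Around Zfp868, the 5 other Zfp genes within 1 Mb had gaps between 0.12 and 0.86.

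Mal2 (ENSMUSG00000024479, chr15:54571192-54602847, plus strand, 4 exons) was raised in a lone WT library. It stood at 26.1, 28.5, 31.2 and 44.9 CPM in DKO libraries 1 to 4, and at 34.5, 31.1 and 1110 CPM in WT libraries 1, 2 and 4. WT 4 held 23450 reads, 24.7-fold above the next library after scaling (95% interval 23.3 to 26.3), and the other 6 libraries spanned 1.72-fold. The gap rests on WT 4 alone and was 0.38 without it. WT 4 also had the highest sum of 3 intercalated cell markers, at 325 CPM against 132 to 196 CPM in the other libraries, which rested on Atp6v1g3, a proton pump subunit gene, at 244 CPM against 61.4 to 99.6 CPM. Slc4a1 did not follow it, at 55 CPM in WT 4, within the 42.2 to 74.4 CPM of the other libraries. Slc26a4 was highest in WT 4 too, but by little, at 25.6 CPM against 17 to 24.7 CPM. The sum of red cell markers was likewise highest in WT 4, at 671 CPM against 85.7 to 455 CPM. It rested mainly on Hbb-bs, at 529 CPM against 59.1 to 306 CPM, while Alas2 was higher in WT 1 (57.9 CPM) than in WT 4 (48.6 CPM). Across all genes WT 4 differed most from the DKO libraries, by a chi-square per gene of 148 to 208, where pairs without WT 4 gave 40.5 to 102. The part of these differences in the result was not tested. In bulk kidney RNA, more cells of a type and more RNA per cell cannot be told apart.

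At an 8-fold gap a single other gene had WT 4 alone above it, and at a gap of 1 log2 unit 277 genes had, Mal2 included. Gpr157, a G protein-coupled receptor gene on chromosome 4, had 4, 10, 3 and 5 reads in DKO libraries and 3, 5 and 132 reads in WT libraries 1, 2 and 4. The 4 tested genes within 500 kb of Mal2 had gaps of at most 0.89, and none had WT 4 alone above it. No transcript of another gene shared 100 bases with Mal2 even at 75% identity. Of the other 9 genes of the MAL family all were tested, and their largest gaps ran from 0.18 to 0.91. Mal, the founding member and a proteolipid of apical transport, stood at 186, 125, 206 and 156 CPM in DKO and 223, 192 and 232 CPM in WT. Cmtm6 stood at 105, 142, 93.5 and 135 CPM in DKO and 119, 143 and 80.5 CPM in WT.

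Gm6300 (ENSMUSG00000104375, chr3:14363117-14377587, plus strand, 4 exons) is an unprocessed pseudogene that was nearly silent in 3 of the DKO libraries. It had 10, 13, 0 and 230 reads in DKO libraries 1 to 4 and 377, 260 and 334 reads in WT libraries 1, 2 and 4. These were 0.440, 0.683, 0 and 9.39 CPM in DKO and 19.6, 13.8 and 15.8 CPM in WT, and the 0 reads of DKO 3 leave room for at most 0.154 CPM. DKO 4 sat with the WT libraries above the gap, 13.7-fold over DKO 2 (95% interval 7.88 to 26.2). Although the gap did not follow genotype, every DKO library was below every WT library. Of the 15394 genes tested 17.4% had groups that did not overlap, and nothing is read from this gene, which was chosen on these values.

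Slc7a12, an amino acid transporter gene of the kidney, is both the closest relative of Gm6300 and its expressed neighbour. Their transcripts are alike over 1396 bases at 75.7% identity, in the looser search, and no gene matched Gm6300 at 90%. Slc7a12 starts 103110 bases downstream on the same strand. It had 410, 253, 358 and 93 reads in DKO libraries and 6, 127 and 16 reads in WT libraries 1, 2 and 4. The 3 libraries with fewest Gm6300 reads, DKO 1, DKO 2 and DKO 3, were thus the 3 with most Slc7a12 reads. Ordered by CPM, the 2 genes ran in opposite order over the 7 libraries except for WT 2 and DKO 4, which exchanged places. DKO 4 had 3.80 CPM of Slc7a12 and WT 2 had 6.72 CPM. The edgeR log2 fold change of Slc7a12 was 2.37 (SE 1.04, DKO over WT), and with the other genes it did not pass the adjusted test. No other gene had the same libraries as Gm6300 above a gap of 2 or more.

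2610035D17Rik (ENSMUSG00000087259, chr11:113043895-113201838, minus strand, 5 merged exons) is a long noncoding RNA downstream of Sox9 that received no read in DKO 2. Its counts were 742, 0, 360 and 388 in DKO libraries 1 to 4 and 376, 286 and 628 in WT libraries 1, 2 and 4. That was 32.7, 0, 18.5 and 15.8 CPM in DKO and 19.5, 15.1 and 29.7 CPM in WT. With 0 reads the level in DKO 2 could lie anywhere up to 0.158 CPM, so the next lowest library, WT 2, was at least 96.1-fold higher. The other 6 libraries spanned 2.16-fold, and without DKO 2 the largest gap was 0.60. Sox9, a transcription factor gene of nephron development and its nearest expressed neighbour on that side, had 41, 71, 27 and 118 reads in DKO and 54, 41 and 77 in WT. The zinc transporter gene Slc39a11, on the other side at 43015 bases, had 683, 789, 357 and 823 reads in DKO and 582, 929 and 564 in WT. Neither neighbour was at its lowest in DKO 2. No other gene had DKO 2 alone below a gap of 2 or more, and no transcript of another gene matched it at 75% identity over 100 bases. It lies 48.5 Mb from Hs3st3a1 on chromosome 11, and Med1 lies 33.6 Mb from it.

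Serpina3b (ENSMUSG00000066364, chr12:104127996-104139545, plus strand, 5 exons) was low in DKO 3 alone. It had 129, 227, 3 and 276 reads in DKO libraries 1 to 4 and 225, 129 and 107 reads in WT libraries 1, 2 and 4. The corresponding levels were 5.68, 11.9, 0.154 and 11.3 CPM in DKO and 11.7, 6.83 and 5.06 CPM in WT. The next lowest library, WT 4, was 32.9-fold above DKO 3, with a wide 95% interval of 11 to 162 because DKO 3 held 3 reads. Without DKO 3 the largest gap was 0.71.

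Close neighbours had the same low library as Serpina3b. Of 14 tested genes within 500 kb 4 had DKO 3 alone below their largest gap, and 2 of these with a gap of at least 1. Serpina3a, at 6100 bases, had 19, 26, 0 and 57 reads in DKO and 57, 28 and 51 in WT. Serpina3g had 31, 18, 7 and 32 reads in DKO and 21, 18 and 18 in WT. Serpina3h and Serpina3f were scarcer, with at most 20 reads in any library. Serpina3c, the neighbour at 6837 bases, did not share it, with 36, 35, 25 and 31 reads in DKO and 65, 8 and 25 in WT. No transcript matched Serpina3b at 90% identity, and in the looser search Serpina3j matched 2018 bases at 79.9% and Serpina3a 1516 bases at 78.0%.

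Other members of the Serpina cluster divided the libraries in a different way. Serpina1d, a gene of the alpha-1 antitrypsin group, stood at 89.1, 0.683, 145 and 1.47 CPM in DKO and at 0.882, 58.3 and 8.33 CPM in WT. DKO 1, DKO 3 and WT 2 were the high libraries, so DKO 3 was highest for Serpina1d and lowest for Serpina3b. Serpina1f stood at 71.5, 48.9, 61.2 and 22.2 CPM in DKO and at 5.71, 68.1 and 10.1 CPM in WT. Of 23 listed Serpina genes other than Serpina3b 14 were tested, with a median log2 fold change of 0.57 beside 0.04 over all genes tested. At most, their gap was 3.23, in Serpina3a.

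Genes elsewhere in the genome also had DKO 3 alone below an 8-fold gap. By the naming rule the 3 most alike were Aqp8, a water channel gene, Slc22a7, an organic anion transporter gene, and the predicted gene Gm5131, with root-mean-square differences of 0.620, 0.726 and 0.765 log2 units over the 7 libraries. Slc22a7 had 563, 2101, 34 and 2368 reads in DKO and 998, 2840 and 944 in WT. Aqp8 had 49, 28, 1 and 100 reads in DKO and 69, 47 and 41 in WT. Gm5131 had 633, 455, 29 and 459 reads in DKO and 342, 618 and 295 in WT. DKO 3 also had the highest Alb and Serpina1a levels but the lowest Apoa2 level. Its sum of macrophage markers was the lowest, 24.4 CPM against 46.7 to 59.2 CPM in the others. Kap and Pvalb too had DKO 3 alone below their largest gaps, of 1.71 and 2.18. DKO 3 alone lay above an 8-fold gap for Mat1a, Cyp2c50, Cyp2c29, Uox, Hpx, Ahsg and Ugt1a2, genes named after they were seen. Their gaps ran from 3.01 to 4.41. None of them was on the liver marker list, but that list held only 3 genes. Absence from it does not say whether they are liver genes. The part of these differences in the result was not tested.

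**Figure D4:**
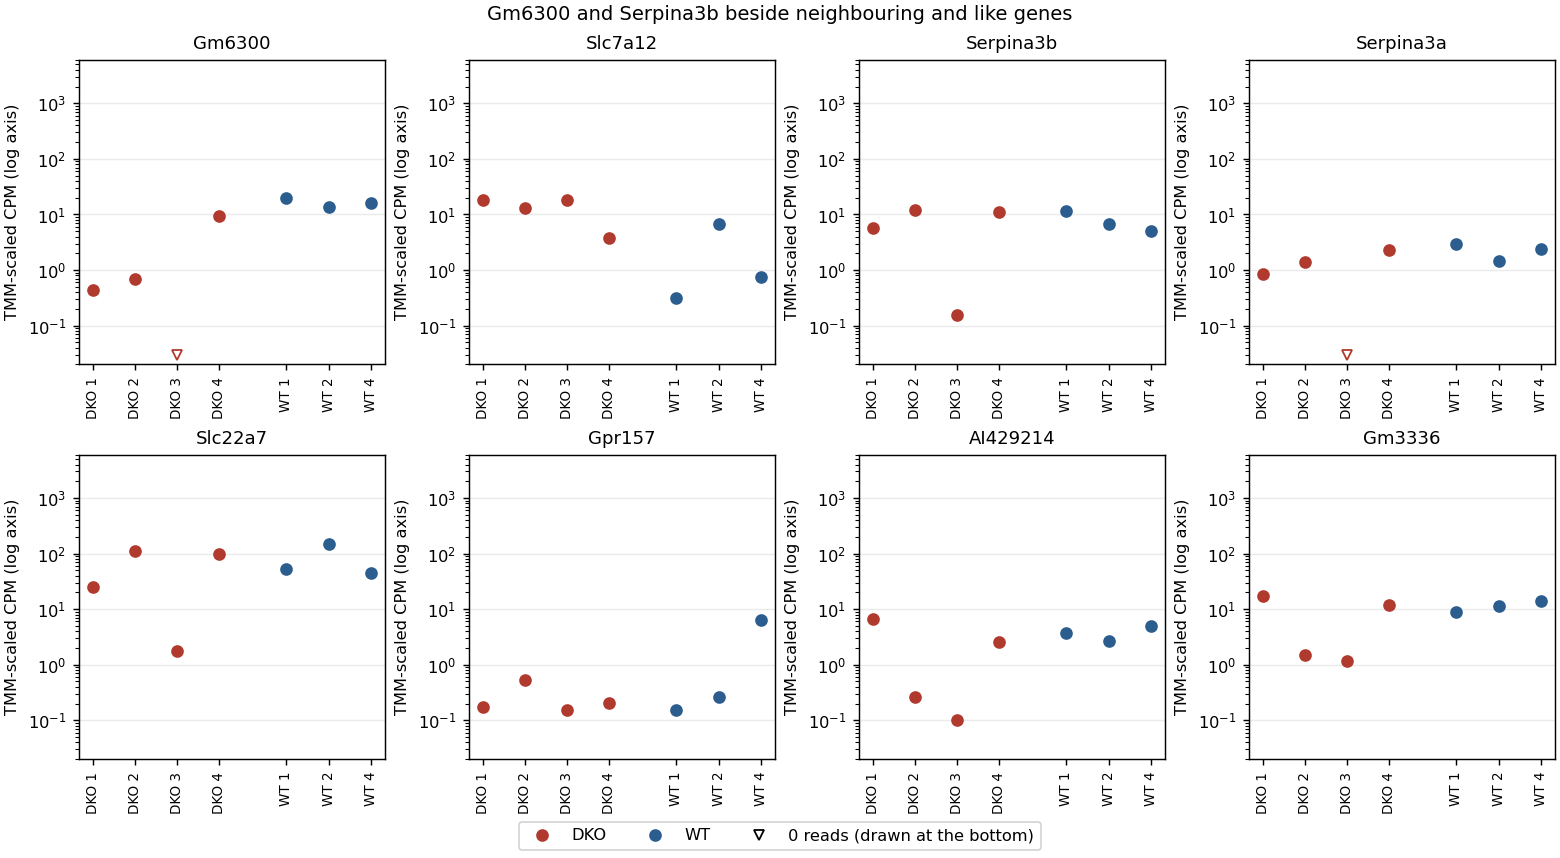
TMM-scaled CPM on a log axis in each DKO (red) and WT (blue) library of Gm6300, Serpina3b and genes that lie near or share a division of the libraries, with an open triangle for 0 reads. Slc7a12 is high where Gm6300 is low in DKO 1 to 3, Serpina3a and Slc22a7 are low in DKO 3 with Serpina3b, Gpr157 is high in WT 4, and AI429214 and Gm3336 are low in DKO 2 and DKO 3.

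Between genotypes, 0 of the 8 genes passed the edgeR quasi-likelihood test at an adjusted p under 0.05, where 0 of 15394 genes did (0.0%), and nothing is read from this for genes picked as not following genotype. At an unadjusted p under 0.05 the test counted 3250 genes (21.1%), and DESeq2 called 672 at an adjusted p under 0.05. The edgeR log2 fold changes, DKO over WT, were 1.09 (SE 1.58) for Ptp4a2, 0.82 (SE 1.61) for Gm13422, -0.52 (SE 1.20) for Med1 and -0.31 (SE 1.27) for Zfp868. They were -3.58 (SE 1.37) for Mal2, -2.60 (SE 1.28) for Gm6300, -0.36 (SE 1.17) for 2610035D17Rik and -0.11 (SE 0.95) for Serpina3b. The SD exceeded the mean in both groups for Ptp4a2, at 1324 ± 1562 CPM in DKO (SD, n = 4) and 620 ± 874 CPM in WT (SD, n = 3). The log2 fold change of Mal2 was -0.01 without WT 4. Of the tested relatives, 9 of the MAL family, 2 PRL phosphatases, 31 of Mediator, 14 of the Serpina cluster and 5 nearby Zfp genes, 0 passed the same adjusted test in either direction.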

How the data were processed

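Kidney RNA of male DKO and WT mice was sequenced from 4 DKO and 3 WT libraries, made with an unstranded tagmentation kit per the labels' protocols. The authors deposited raw counts per gene, a filtered set of the same counts, and a table of TMM-scaled values, recorded here as signal (CPM whose sums differ between libraries). Per the submitters' processing notes reads were aligned with STAR 2.5.2a. How reads were counted, with which annotation release, and what was done with reads that match several genes is not stated in the labels or notes used here. This bears on Ptp4a2 and Gm13422. Gene symbols came from the deposited TMM table, where 1 of the 8 genes fills more than 1 row.

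From the raw counts, the 24 transgene and spike-in rows were left out (at most 6.97e-04% of a library), and CPM were scaled by edgeR 4.0.16 TMM factors in R 4.3.3 over genes kept by filterByExpr (minimum count 10, total 15). RPKM divide by merged exon length in GENCODE M21. Genotypes were compared with edgeR's robust quasi-likelihood F test and Benjamini-Hochberg adjustment over 15394 genes. DESeq2 1.42.0 and limma 3.58.1 (voom) were alternatives. Sequences were compared with blastn 2.17.0. Libraries differed by 40.5 to 208 in chi-square per gene, so none repeats another. Count intervals are exact 95% intervals, and 0 reads was taken to allow 3.

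The 8 genes and the gene lists were chosen with earlier results of these data known. Genes named besides the 8 followed a rule: up to 3 non-members with the same libraries above an 8-fold gap, nearest expressed neighbours, closest sequence relatives, and from each family those sharing the pattern or the 2 most abundant. Values of AI429214, Gm3336, Upf1, Zdhhc2, Gm45650, Igkv4-59, Serpina1a, Med31, Tmem263 and the genes of the other observations besides were named after they were seen. So were those of Kap, Pvalb and the genes with DKO 3 alone above an 8-fold gap.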

Additional observations from a re-analysis of the deposited data

Results flagged for a closer look

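Among the DKO libraries, 2610035D17Rik in DKO 2, with 0 reads, lay far from the others on the log2(CPM + 0.1) scale, where the gap to the nearest library made 0.876 of the range of the 4 libraries. This is a description, since the gene was chosen for such a gap. With a pseudocount of 1 CPM, tried after the data were seen, the share was 0.803. No outlier test is read from either share, since the gap itself chose the gene.

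Rows outside the gene counts also held reads. Neo, named for the neomycin resistance gene, had 73, 75, 81 and 125 reads in DKO libraries 1 to 4 and 0 in each WT library. LacZ had 21, 21, 16 and 32 reads in DKO and 1, 2 and 5 in WT.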

How the results depend on the processing

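The count of genes with an 8-fold gap was 32 and became 20 with at least 5 CPM above the gap, 16 with a pseudocount of 0.5 and 80 with a gap of 2 log2 units. It was 22 to 40 when 1 library was left out. All 8 genes kept a gap of 3 with no TMM factor, in the deposited TMM values and with a pseudocount of 0.5, and 5 kept it with a pseudocount of 1. With that pseudocount the gap was 2.78 for Gm13422, 2.63 for Gm6300 and 2.39 for Serpina3b, since a pseudocount of 1 is of the order of the levels in their low libraries or above them.

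The genes past the adjusted test between genotypes numbered 0, against 672 with DESeq2 and 66 with no low-count filter, and 0 to 7 when 1 library was left out (7 without DKO 1, 1 without WT 2); the cause was not tested. With a replicate block over the shared numbers 1, 2 and 4 the count was 0. Deviations of same-numbered libraries correlated at -0.133, 0.164 and 0.135, and those of differently numbered libraries at -0.229 to 0.162. So few correlations cannot decide whether the numbers pair the libraries. Without WT 2 the log2 fold change of Ptp4a2 was 3.51 and of Gm13422 3.72, and without DKO 4 that of Gm6300 was -5.43. Over all settings the sign of the fold change turned for 5 of the 8 genes, 2610035D17Rik, Gm13422, Ptp4a2, Serpina3b and Zfp868. Depth limits the low side of Gm6300, 2610035D17Rik and Serpina3b, which rests on 0 to 13 reads.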

Other observations

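Among the genes that divided the libraries as Med1 and Zfp868 did, chromosome 8 was the most frequent and was singled out for that. With a gap of at least 1 log2 unit and 1 CPM above it, values chosen after the levels were seen, 12 genes had DKO 2 and DKO 3 below the gap and the other 5 libraries above it. Of these 12, which include Med1 and Zfp868 themselves, 6 lie on chromosome 8, Zfp868 among them. That chromosome holds 833 of 14947 genes (5.57%) that reached 1 CPM in a library. No test is read from these shares, since the division came from the chosen genes and the chromosome was picked afterwards. Besides Zfp868, at 69.6 Mb, the genes on chromosome 8 were AI429214 at 37.0 Mb, Zdhhc2 at 40.4 Mb, Gm45650 at 60.7 Mb, Upf1 at 70.3 Mb and Gm3336 at 70.7 Mb. AI429214 had 154, 5, 2 and 63 reads in DKO libraries 1 to 4 and 72, 51 and 107 in WT libraries 1, 2 and 4. Gm3336 had 388, 28, 23 and 297 reads in DKO and 168, 214 and 300 in WT. Upf1, the helicase of nonsense-mediated decay, had 1300, 305, 372 and 1135 reads in DKO and 817, 761 and 1357 in WT. Zdhhc2, a protein palmitoyltransferase gene, had 111, 14, 10 and 105 reads in DKO and 31, 70 and 54 in WT. Med1 was the only gene of chromosome 11 among the 12. A further 4 were immunoglobulin genes or Jchain, which joins antibody chains, with 171, 26, 26 and 194 Jchain reads in DKO and 452, 81 and 501 in WT.

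The division of 2610035D17Rik, with DKO 2 alone below, was shared at that smaller gap by 6 genes, of which 3 lie on chromosome 4 between 115.3 and 130.2 Mb. Chromosome 4, singled out as the most frequent for this division, holds 954 of 14947 genes (6.38%) that reached 1 CPM in a library. Tinagl1, which starts at 130.2 Mb and so near Ptp4a2 at 129.8 Mb, had 1844, 461, 2796 and 1426 reads in DKO and 1702, 980 and 1145 in WT. DKO 2, where Tinagl1 was lowest, was the library in which Ptp4a2 was highest.

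The division of Serpina3b, with DKO 3 alone below, held 95 genes at the smaller gap, the clock genes Bmal1 and Npas2 among them. Bmal1 had 336, 314, 51 and 745 reads in DKO and 474, 232 and 248 in WT, and Npas2 had 172, 96, 14 and 548 reads in DKO and 342, 69 and 173 in WT. Slco1a1, an organic anion transporter gene with a gap of 4.35, had 614, 518, 24 and 2860 reads in DKO and 3092, 3320 and 3850 in WT.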
